A study of Bos taurus with 8 samples.

Results

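The genes described here encode the soluble factors that carry ribosomes through initiation and elongation of protein synthesis. They were taken as every gene on the array whose platform symbol begins with EIF1 to EIF6 or with EEF1 or EEF2. The eIF2 kinases (EIF2AK) and the eIF4E-binding proteins (EIF4EBP) were left out. This gave 53 of 15229 genes with a symbol, on 81 of 43794 probes. Each gene was read from its probe of highest mean intensity, and 51 of the 53 had a probe above background on at least 4 of 8 arrays. The 53 symbols include 3 Argonaute genes, whose products act in RNA silencing and not in translation initiation. The array lists them under the older names EIF2C1, EIF2C2 and EIF2C3, and 49 of the 51 measured genes remain without them.

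The lipid group was made of Holstein blastocysts produced in vitro from slaughterhouse ovaries, to which lipids extracted from serum were given from day 3, at 8 to 16 cells, until day 7. The control group was produced in the same way and received no lipids, and a commercial source of bovine serum albumin is labelled for pools of both groups. Blastocysts were collected 170 hours after fertilization in pools of 10, and 4 lipid pools and 4 control pools were compared on 2-colour arrays. Each lipid pool was set against a control pool on 2 arrays with exchanged dyes, 1 on slide 87 and 1 on slide 88. Arrays of the same number were taken as 1 pool pair, so that n = 4 pool pairs throughout. A pool of whole embryos mixes trophectoderm and inner cell mass, and fewer cells of a type cannot be told apart from less RNA per cell. The labels do not say that the pools came from separate fertilization runs, so the p-values measure only the spread between these pools.

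Initiation begins when eIF2 brings the initiator tRNA to the small ribosomal subunit, on which eIF3, eIF1 and eIF1A are assembled. The eIF4 factors bind the cap of the mRNA, unwind its leader and hand it to that subunit, and eIF5 and eIF5B then join the large subunit. During elongation eEF1 delivers each aminoacyl-tRNA and eEF2 moves the ribosome along the mRNA. The embryo relies on stored maternal mRNA until its genome is activated around the 8 to 16 cell stage in cattle, and the blastocyst is a stage of intense protein synthesis.

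Translation factor transcripts were detected more often than transcripts in general, and their levels were close in lipid and control blastocysts. The brightest probe passed the background filter in 51 of 53 genes (96.2%), against 76.6% of all genes. It was above background on all 8 arrays for 40 of the 53 (75.5%), against 31.3% of all genes. The mean log2 ratio of lipid over control was above 0 for 22 and below 0 for 29 of the 51 measured genes. Their median log2 ratio was -0.018, with quartiles of -0.11 and 0.095. Over 11685 genes the median was 0, with quartiles of -0.079 and 0.083. Whatever its sign, the mean log2 ratio had a median size of 0.112 for the 51, larger than the 0.081 of all genes. The lowest mean log2 ratio was -0.33, of EIF3B, and the highest was 0.48, of EIF4E3. None of the 51 had a mean more than 1.5-fold from equal levels in either direction, a size reached by 0.796% of all genes. With so low a share over all genes, a count of 0 among 51 does not set the translation factors apart.

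No translation factor passed the test. In the limma fit, 0 of 28844 probes and 0 of the 51 genes had an adjusted p under 0.05, a background of 0%. The adjusted p of every translation factor lay between 0.996 and 1, and 1287 probes had an unadjusted p under 0.05. At an unadjusted p under 0.05, EIF4E3 and EIF4A3 were higher in lipid pools, which is 3.92% of the 51 against 2.74% of all genes. EIF3F and EEF1B were lower at that threshold, which is again 3.92% of the 51, against 2.64% of all genes. These 4 are therefore described by their values and not as changed. The ratio was above 0 in all 4 pool pairs for EIF1B, EIF2C2, EIF4A3, EIF4E1B and EIF4E3, which is 9.8% of the 51 against 5.36% of all genes. EIF2C2 and EIF4E1B were each above background in 4 lipid channels and 1 control channel of 8. Without lipid channels both would have failed the background filter, so their detection favoured lipid pools. EEF1A2 and EEF2K had 4 lipid and 3 control channels above background, and EIF5A2 had 4 and 2, with mean log2 ratios below 0. In none of these 5 did control channels alone reach 4. Among the 46 translation factors above background in at least 4 channels of each group, 3 (6.52%) were above 0 in all 4 pool pairs, against 5.54% of all such genes. The ratio was below 0 in all 4 pool pairs for EIF1AD and EIF3F, 3.92% of the 51 against 5.68% of all genes. On single arrays, EIF4A3 and EIF4E3 were above 0 on all 8, which is 3.92% of the 51 against 1.16% of all genes. No translation factor was below 0 on all 8 arrays, where 1.17% of all genes were.

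The spread of these ratios between pool pairs can be read from their intervals. The 95% confidence interval lay within 1.5-fold of equal levels for 41 of the 51 genes (80.4%), against 81.2% of all genes. It lay within 2-fold for 50 of the 51 (98%), against 97.4% of all genes, and the exception was EIF3B. The median SD of the 4 pool-pair log2 ratios was 0.235 for the translation factors and 0.229 for all genes. Over all genes it varied with log2 intensity: 0.159 below 8, 0.293 from 8 to 10 and 0.05 at 15 or above. Below 8 lay 5187 of 11685 genes but 7 of the 51, so these shares are not compared at like intensity. A narrow interval at either end of the scale was not read as a precise ratio.

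**Figure D1:**
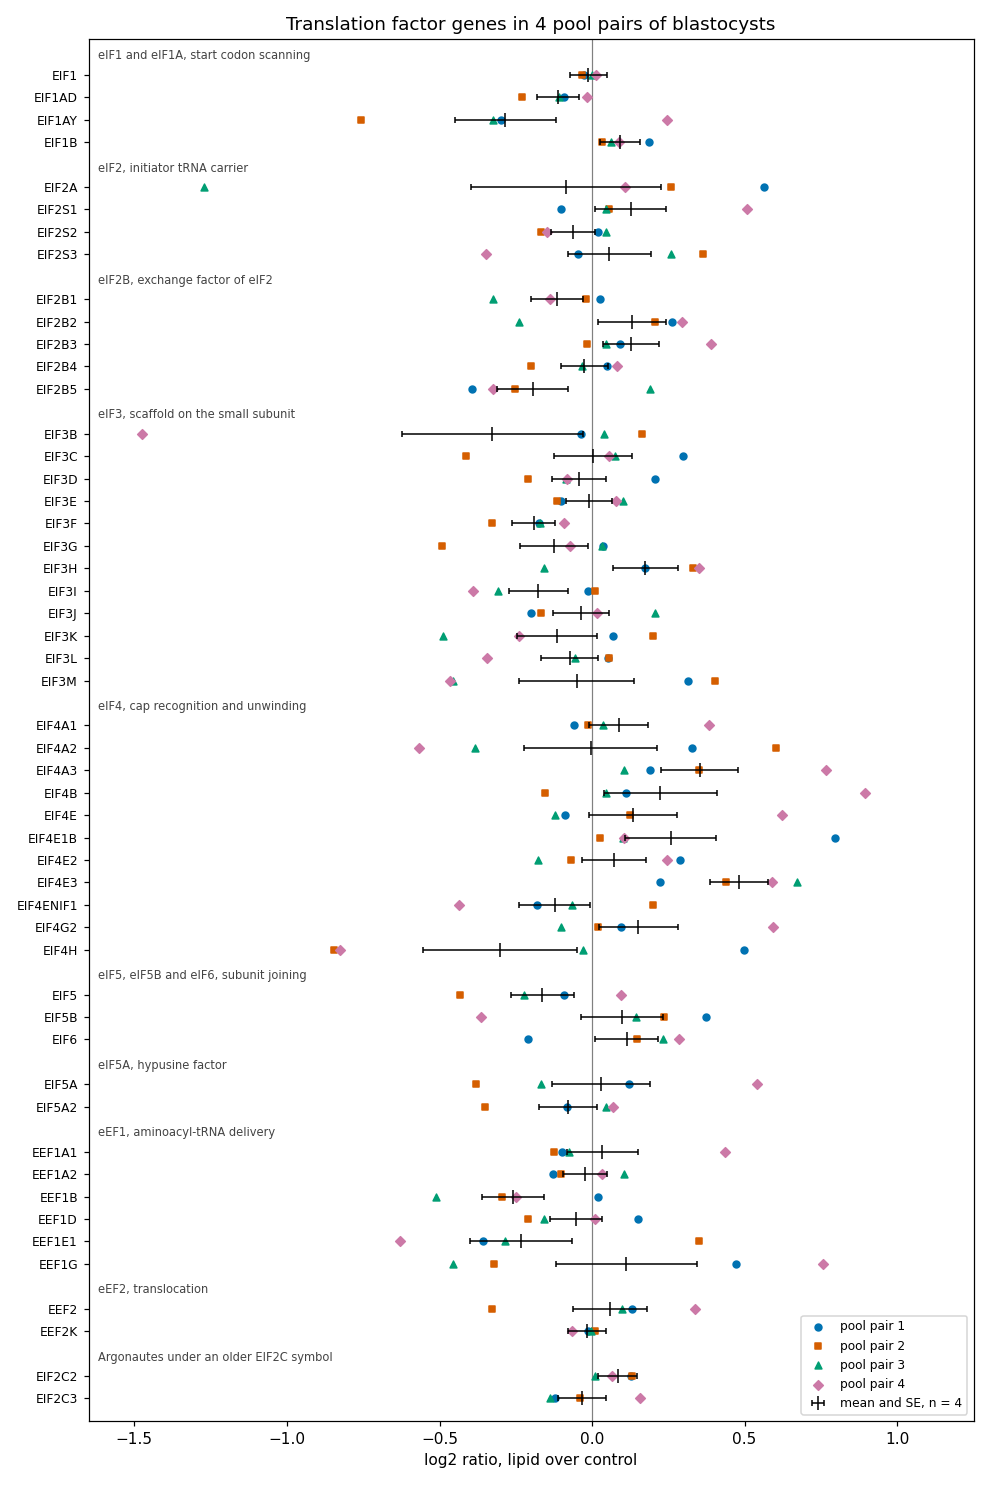
Log2 ratio of lipid over control (horizontal axis) for the 51 measured translation factor genes, grouped by role down the page. Coloured symbols are the 4 pool pairs and the black bar is their mean with its SE. Most genes have pool pairs on both sides of 0, EIF4E3 lies between 0.22 and 0.67 in all 4, and single pool pairs of EIF3B and EIF2A lie at -1.48 and -1.27.

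Start codon recognition depends on eIF1 and eIF1A, which hold the scanning ribosome open until it meets the start codon. EIF1, which guards the accuracy of start codon choice, had a log2 level of 15.14 ± 0.02 in lipid pools and 15.15 ± 0.02 in control pools (SD, n = 4 each). That level is near the highest mean of any gene here, 15.3 on the log2 intensity scale, and the 82 genes at 15 or above had a median SD of only 0.05 in log2 ratio. The mean log2 ratio of EIF1 was -0.012 ± 0.061 (SE), and that of its paralogue EIF1B was 0.092 ± 0.065. EIF1AD, which carries the eIF1A domain, had pool-pair log2 ratios of -0.093, -0.23, -0.11 and -0.017. Both small means kept 1 sign in all 4 pool pairs, although the p of EIF1B was 0.215 and that of EIF1AD 0.161 (limma, unadjusted).

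EIF1AY, named for the copy of eIF1A on the Y chromosome, was the gene of this group with the smallest p. This gene was close to background, with 5 lipid and 5 control channels of 8 above it. Its log2 levels were 6.95, 7.22, 7.83 and 7.35 in lipid pools 1 to 4, against 7.25, 7.98, 8.15 and 7.11 in control pools 1 to 4. The lipid pool was below its control pool in 3 of 4 pairs, and the ranges of the groups overlapped. The share of male embryos in each pool was not tested. Its mean log2 ratio was -0.28 ± 0.17 (SE, limma unadjusted p = 0.143). It was -0.127 without pool pair 2, -0.46 without pool pair 4 (unadjusted p = 0.0198, adjusted p = 1 in limma) and -0.165 without background correction. Both pool 3 levels were high, and the mean level of a pair ranged over 0.89 between pool pairs. The X-linked copy, EIF1AX, is not analysed here.

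The carrier eIF2 is built from the subunits EIF2S1, EIF2S2 and EIF2S3, and phosphorylation of EIF2S1 is the switch by which stress lowers general initiation. EIF2S1 had log2 levels of 12.77, 13.23, 13.22 and 13.45 in lipid pools 1 to 4, against 12.87, 13.18, 13.18 and 12.95 in control pools 1 to 4. The gap was widest in pair 4, and the groups overlapped. Its mean log2 ratio was 0.13 ± 0.12 (SE, limma unadjusted p = 0.325), and without pool pair 4 it was -0.001. EIF2S3, the subunit that binds GTP and the initiator tRNA, had a mean of 0.057, and EIF2S2, which contacts eIF5, had a mean of -0.062. EIF2A, a separate protein that can bring initiator tRNA without eIF2, had log2 ratios of 0.56, 0.26 and 0.11 in pool pairs 1, 2 and 4 and of -1.27 in pool pair 3. The 2 arrays behind that last value gave -0.54 and -2.009, and the mean of EIF2A was -0.086 ± 0.31 (SE).

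Exchange of GDP for GTP on eIF2 is the work of the 5-subunit complex eIF2B. EIF2B5, its catalytic subunit, had log2 levels of 11.29, 11.45, 12 and 11.39 in lipid pools 1 to 4, against 11.68, 11.70, 11.81 and 11.71 in control pools 1 to 4. The lipid pools were lower in pairs 1, 2 and 4 and higher in pair 3. Averaged over pairs, its log2 ratio was -0.195 ± 0.12 (SE, limma unadjusted p = 0.15), and it was -0.129 without pool pair 1 and -0.323 without pool pair 3. Its other kept probes had mean log2 ratios of -0.28 and -0.034, so all 3 probes were below 0, and the first of these had the smaller unadjusted p, 0.0231 in the same limma fit. EIF2B1 and EIF2B4 had means of -0.115 and -0.026, and EIF2B2 and EIF2B3 had means of 0.13 and 0.13.

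The scaffold eIF3 is the largest initiation factor and bridges the small subunit and the eIF4 complex. Mean log2 ratios were below 0 for 10 of its 12 measured subunits and above 0 for EIF3C and EIF3H, with a median of -0.062. Over all genes 5857 of 11685 were below 0. By pool pair 5, 6, 7 and 8 of the 12 were below 0, and the median was 0.043, -0.053, -0.071 and -0.086. The count of subunits below 0 lay between 7 and 11 over the 16 alternative settings, and without pool pair 2 it was 7 of 12. The median was below 0 in all 16, but settings that changed only the filter or the variance model left every eIF3 mean as it was. EIF3A, the largest subunit, is not analysed here.

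EIF3F, a subunit with the MPN fold, was the eIF3 gene of smallest p. Its log2 levels were 14.62, 14.28, 14.61 and 14.61 in lipid pools 1 to 4, against 14.79, 14.61, 14.78 and 14.70 in control pools 1 to 4. Each lipid pool was below its own control pool, and the ranges of the groups met only at control pool 2. The mean log2 ratio was -0.19 ± 0.071 (SE, 95% confidence interval -0.37 to -0.012), a fold of 0.876, with a limma unadjusted p of 0.0406 and an adjusted p of 0.996. EIF3F had 4 kept probes, and all 4 means were below 0, at -0.19, -0.099, -0.38 and -0.096. The single arrays were less even. On slide 87 the log2 ratios of pool pairs 1 to 4 were 0.049, -0.36, -0.49 and -0.41, and on slide 88 they were -0.399, -0.302, 0.154 and 0.225. The arrays with lipid in Cy5 averaged 0.42 above those with lipid in Cy3, a dye difference that cancels within a pool pair. Within slide 88 alone the mean was -0.081, against -0.302 within slide 87 alone, and EIF3F had an unadjusted p under 0.05 in 7 of 16 alternative settings.

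Of the 11 other measured eIF3 genes, each had a 95% confidence interval that included 0. EIF3B, a core subunit with an RNA recognition motif, had log2 levels of 10.74, 9.56, 9.70 and 8.81 in lipid pools 1 to 4, against 10.77, 9.39, 9.66 and 10.29 in control pools 1 to 4. Only lipid pool 4 stood apart. The pool-pair log2 ratio there was -1.48, and the 2 arrays of that pair gave -1.05 and -1.896. Its mean log2 ratio was -0.33 ± 0.296 (SE), and without pool pair 4 it was 0.056. EIF3I, a WD-repeat subunit, had a mean of -0.18 ± 0.097, and its other kept probe had -0.066. EIF3G, which binds RNA during scanning, had -0.12 ± 0.11 and its other kept probe -0.235. EIF3K, a small peripheral subunit, had -0.115 ± 0.13, and EIF3H, the partner of EIF3F with the same fold, had 0.17 ± 0.11. EIF3C, EIF3D, EIF3E, EIF3J, EIF3L and EIF3M lay between -0.073 and 0.003. EIF3C is matched in RefSeq to EIF3CL, a near-identical copy, and whether this probe separates them was not tested.

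Cap recognition and unwinding are shared among the eIF4 factors: eIF4E binds the cap, eIF4A is the helicase, eIF4B and eIF4H assist it, and eIF4G holds them together. Mean log2 ratios were above 0 for 8 of the 11 measured eIF4 genes and below 0 for EIF4A2, EIF4ENIF1 and EIF4H, with a median of 0.134. Over all genes 5828 of 11685 were above 0. EIF4E1B was above background in 4 lipid channels and 1 control channel, so it would have failed the filter without lipid channels. Leaving it out, 7 of 10 were above 0, with a median of 0.11. By pool pair 8, 7, 5 and 8 of the 11 were above 0, and the median was 0.189, 0.027, -0.029 and 0.38. It was 0.004 without pool pair 4, with 6 of 11 above 0, so the size of the median rested on that pair. The median was above 0 in all 16 alternative settings, but those that changed only the variance model left every mean as it was. The main scaffold EIF4G1 is not analysed here, and EIF4G3, its paralogue, was above background in no lipid channel and in 1 control channel and was not tested. EIF4G2, a relative that lacks the eIF4E site, had a mean of 0.15 ± 0.13 (SE).

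EIF4E3, a divergent cap-binding relative of eIF4E, had the smallest p of all translation factors. Its log2 levels were 10.37, 9.89, 10.54 and 10.32 in lipid pools 1 to 4, against 10.15, 9.45, 9.87 and 9.73 in control pools 1 to 4. Every lipid pool was above its own control pool, and lipid pools 1, 3 and 4 were above all 4 control pools, while pool 2 was the lowest in both groups. The mean log2 ratio was 0.48 ± 0.095 (SE, 95% confidence interval 0.240 to 0.72), a fold of 1.4, with a limma unadjusted p of 0.00333 and an adjusted p of 0.996. The 2 arrays of a pair gave log2 ratios of 0.232 and 0.216 in pool pair 1, 0.464 and 0.417 in pair 2, 0.593 and 0.747 in pair 3, and 0.478 and 0.698 in pair 4. The exchange of dyes thus moved EIF4E3 little. Over 16 alternative settings its mean stayed between 0.42 and 0.57, its unadjusted p between 9.6e-05 and 0.0168 and its adjusted p between 0.111 and 1. These ranges include the setting that takes the arrays as independent. Settings that changed only the filter or the variance model left its mean at 0.48, where it could not move. The array carried 1 probe for EIF4E3, so no second probe could be set beside it.

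EIF4A3, a relative of the eIF4A helicase that sits in the exon junction complex, came next. Its log2 levels were 9.96, 10.66, 9.76 and 10.34 in lipid pools 1 to 4, against 9.77, 10.31, 9.66 and 9.58 in control pools 1 to 4. Each lipid pool was above its own control pool, the groups overlapped, and pair 4 had the widest gap. Its mean log2 ratio was 0.35 ± 0.126 (SE, 95% confidence interval 0.035 to 0.67), a fold of 1.28, with a limma unadjusted p of 0.0355 and an adjusted p of 0.996. Without pool pair 4 the mean was 0.215, with an unadjusted p of 0.0764. It had an unadjusted p under 0.05 in 11 of 16 alternative settings. Those 11 include the setting that takes the arrays as independent and others that reuse the same ratios.

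**Figure D2:**
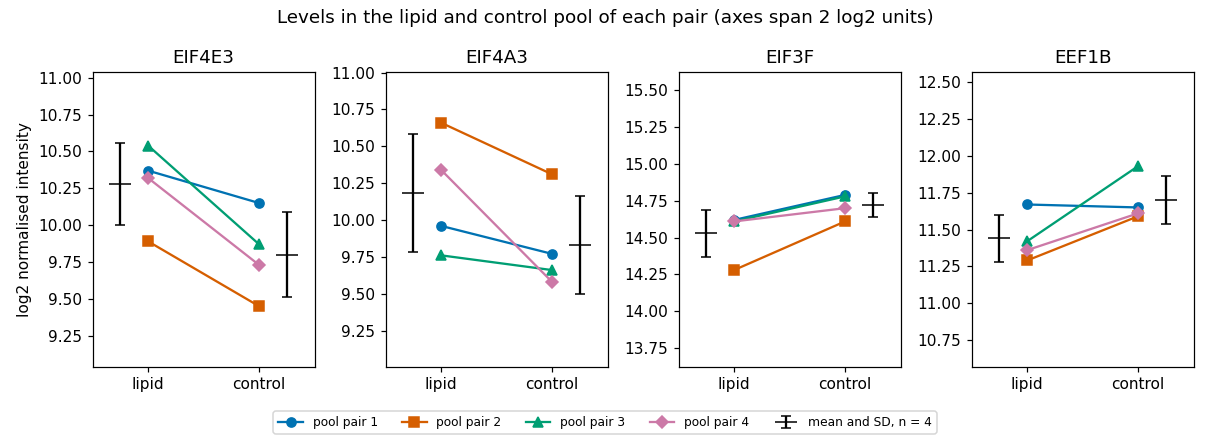
Log2 normalised intensity (vertical axis, a span of 2 log2 units in each panel) of EIF4E3, EIF4A3, EIF3F and EEF1B in the lipid pool (left) and the control pool (right) of each pair. Lines join the pools of a pair, and black bars are the mean and SD of 4 pools. Lines slope down to control in all 4 pairs for EIF4E3 and EIF4A3, up in all 4 for EIF3F, and up in 3 for EEF1B.

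The canonical helicase and cap-binding protein were even. EIF4A1 had log2 levels of 11.56, 10.67, 12.56 and 11.01 in lipid pools 1 to 4, against 11.62, 10.68, 12.53 and 10.63 in control pools 1 to 4. In pairs 1 to 3 the lipid and control pools lay close together, while levels differed by up to 1.87 between pairs, with pair 3 high in both groups. Its mean log2 ratio was 0.087 ± 0.097 (SE, limma unadjusted p = 0.409), and without pool pair 4 it was -0.012. EIF4E had log2 levels of 10.67, 11.01, 11.15 and 11.37 in lipid pools 1 to 4, against 10.76, 10.89, 11.27 and 10.75 in control pools 1 to 4. Lipid pool 4 was the highest value and the other pools overlapped. The mean of EIF4E was 0.134 ± 0.14 (SE, limma unadjusted p = 0.388). It was -0.029 without pool pair 4, and its other kept probes gave -0.014 and 0.1.

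EIF4E1B, a cap-binding relative known from oocytes, had a mean log2 ratio of 0.257 ± 0.15 (SE). It was above background in 4 lipid channels and 1 control channel of 8 each. Its log2 ratio was 0.795 in pool pair 1 and between 0.027 and 0.104 in the other 3. EIF4B had a mean of 0.22 ± 0.18 and EIF4H a mean of -0.301 ± 0.25, so the 2 helicase partners lay on opposite sides of 0 with errors nearly as large as their means. The second kept probe of EIF4H gave -0.018. EIF4A2, a helicase paralogue, had log2 ratios of 0.33 and 0.604 in pool pairs 1 and 2 and of -0.385 and -0.566 in pairs 3 and 4. EIF4E2, a cap-binding repressor, and EIF4ENIF1, the transporter that carries eIF4E into the nucleus, had means of 0.072 and -0.12.

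**Figure D3:**
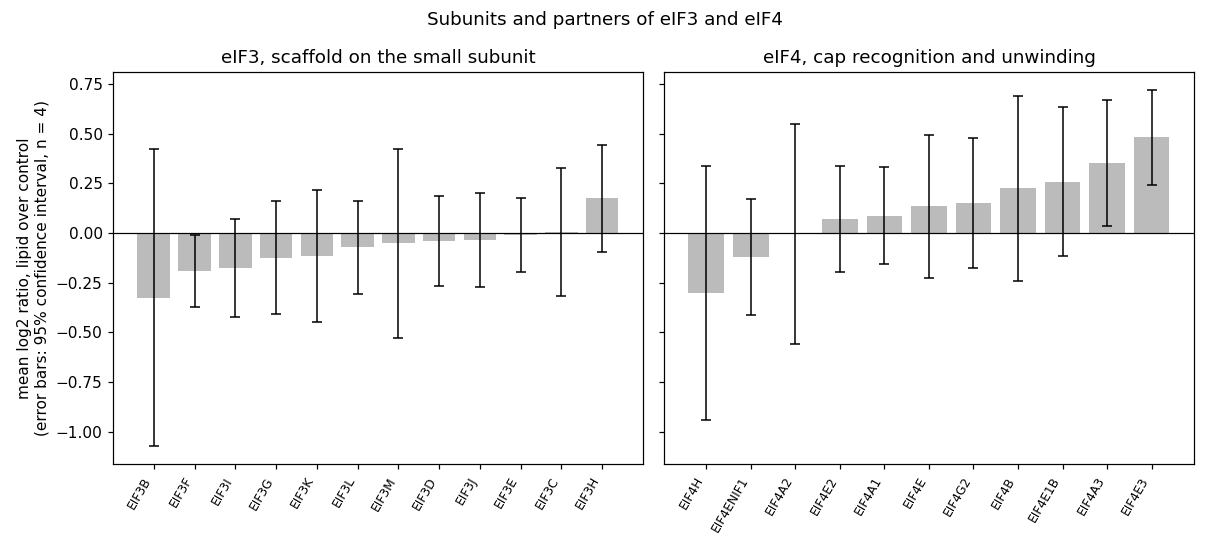
Mean log2 ratio of lipid over control (vertical axis, bars from 0) for the 12 measured eIF3 genes on the left and the 11 measured eIF4 genes on the right, with 95% confidence intervals over 4 pool pairs. In the left panel 10 bars point down and in the right panel 8 point up, and only the intervals of EIF3F, EIF4A3 and EIF4E3 leave out 0, each without adjustment.

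Joining of the subunits closes initiation. EIF5, which triggers GTP hydrolysis on eIF2, had log2 levels of 12.42, 12.70, 12.47 and 12.56 in lipid pools 1 to 4, against 12.52, 13.13, 12.69 and 12.47 in control pools 1 to 4. The lipid pool was lower in pairs 1 to 3 and higher in pair 4, and the groups overlapped. Over the 4 pairs EIF5 averaged a log2 ratio of -0.16 ± 0.103 (SE, limma unadjusted p = 0.171). It was -0.073 without pool pair 2 and -0.248 without pool pair 4, and its other kept probes gave 0.054 and 0.032. EIF6, which keeps the large subunit free until it is needed, had log2 levels of 13.88, 14.16, 14.06 and 14.33 in lipid pools 1 to 4, against 14.09, 14.02, 13.83 and 14.05 in control pools 1 to 4. The lipid pool was higher in pairs 2 to 4, with a mean of 0.113 ± 0.103 (SE, limma unadjusted p = 0.323). It was 0.22 without pool pair 1 and 0.055 without pool pair 4, and the second kept probe gave 0.189. EIF5B, the GTPase of subunit joining, had a mean of 0.097 ± 0.135, with pool pair 4 below 0 and the others above.

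The factor eIF5A carries the amino acid hypusine and helps the ribosome past stretches that form peptide bonds slowly. EIF5A had log2 levels of 10.71, 10.25, 10.06 and 10.51 in lipid pools 1 to 4, against 10.59, 10.63, 10.23 and 9.97 in control pools 1 to 4. Lipid pools were higher in pairs 1 and 4 and lower in pairs 2 and 3, and the mean log2 ratio was 0.029 ± 0.16 (SE, limma unadjusted p = 0.864). It was 0.165 without pool pair 2 and -0.141 without pool pair 4. EIF5A2, its paralogue, had log2 levels of 7.17, 7.15, 7.29 and 7.38 in lipid pools 1 to 4, against 7.25, 7.5, 7.24 and 7.31 in control pools 1 to 4. It was close to background, in 4 lipid and 2 control channels above it, and its mean was -0.079 ± 0.094 (SE, limma unadjusted p = 0.437), against 0.011 without pool pair 2.

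Elongation factors lay around 0 as a group, with 3 of 8 above 0 and a median log2 ratio of -0.021, against 18 of 41 and -0.012 for the initiation factors. EEF1A1, the GTPase that delivers aminoacyl-tRNA in most cells, had log2 levels of 13.97, 12.16, 13.86 and 14.10 in lipid pools 1 to 4, against 14.07, 12.28, 13.93 and 13.66 in control pools 1 to 4. Pool 2 was low in both groups, and this held on both slides, where the mean level of that pair was 12.65 and 11.79. The pool-pair log2 ratios were -0.098, -0.125, -0.075 and 0.434, with a mean of 0.034 ± 0.12 (SE, limma unadjusted p = 0.783), and without pool pair 4 that mean was -0.099. Many processed copies of EEF1A1 exist in mammalian genomes, and whether its probes also bind their transcripts was not tested. EEF1A2, the form of muscle and nerve, had log2 levels of 7.08, 7.23, 7.27 and 7.25 in lipid pools 1 to 4, against 7.21, 7.33, 7.17 and 7.22 in control pools 1 to 4. It was above background in 4 lipid and 3 control channels of 8, and its mean was -0.024 ± 0.073 (SE, limma unadjusted p = 0.759), or 0.011 without pool pair 1.

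The eEF1B subunits reload eEF1A with GTP. EEF1B, now named EEF1B2 and the exchange subunit itself, had log2 levels of 11.67, 11.29, 11.42 and 11.36 in lipid pools 1 to 4, against 11.65, 11.59, 11.93 and 11.61 in control pools 1 to 4. Lipid pools 2 to 4 were below all 4 control pools, and lipid pool 1 was level with its control. The mean log2 ratio was -0.259 ± 0.102 (SE, 95% confidence interval -0.516 to -0.002), a fold of 0.835, with a limma unadjusted p of 0.0485 and an adjusted p of 0.996. It had an unadjusted p under 0.05 in 8 of 16 alternative settings, and its mean lay between -0.352 and -0.176 in all 16. Those 8 include the setting that takes the arrays as independent and others that reuse the same ratios, so they are not separate evidence. EEF1D and EEF1G, the other subunits of the exchange complex, had means of -0.052 ± 0.086 and 0.112 ± 0.23. EEF1E1, a scaffold of the aminoacyl-tRNA synthetase complex, had a mean of -0.23 ± 0.17, and its second kept probe gave -0.152, with all 4 pool pairs of that probe below 0.

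Translocation is driven by eEF2, which the kinase EEF2K switches off by phosphorylation. EEF2 had log2 levels of 14.43, 14.17, 14.18 and 14.21 in lipid pools 1 to 4, against 14.30, 14.49, 14.09 and 13.87 in control pools 1 to 4. The lipid pool was lower in pair 2 only and the groups overlapped, with a mean log2 ratio of 0.06 ± 0.12 (SE, limma unadjusted p = 0.64). It was 0.189 without pool pair 2 and -0.033 without pool pair 4. Its dimmer kept probe gave a mean of -0.183, so the 2 probes were on opposite sides of 0. EEF2K was dim, with a mean of -0.018 ± 0.062.

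Of the Argonautes, EIF2C2, now AGO2 and the member that can cut its target RNA, had log2 levels of 7.31, 7.26, 7.15 and 7.05 in lipid pools 1 to 4, against 7.18, 7.13, 7.14 and 6.99 in control pools 1 to 4. Each lipid pool was above its own control pool by a small margin, but only 1 control channel of 8 was above background. Over the pairs its log2 ratio averaged 0.084 ± 0.064 (SE, limma unadjusted p = 0.246). EIF2C3, now AGO3, had a mean of -0.034, and EIF2C1, now AGO1, was above background on no array and was not tested.

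By pool pair, the medians of the translation factors lay close to 0 on either side. Their median log2 ratio was 0.035, -0.019, -0.034 and 0.064 in pool pairs 1 to 4, against -0.008, 0.015, -0.008 and 0.002 over all genes, and 29, 23, 23 and 31 of the 51 were above 0. With the arrays centred on their medians in place of the loess step, the 4 medians were 0.108, 0.07, -0.119 and -0.036, so their signs in pool pairs 2 and 4 depend on that step. The 2 arrays of a pool pair were taken to share their RNA, although the labels do not name the pools on each array. Across the 51 genes these 2 arrays gave correlations of 0.42, 0.5, 0.15 and 0.63 in pairs 1 to 4, against 0.24, 0.56, 0.19 and 0.23 over all genes. Across the same genes, different pool pairs gave correlations from -0.23 to 0.13, against -0.23 to 0.23 over all genes. These are descriptions across genes, which are not independent replicates.

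**Figure D4:**
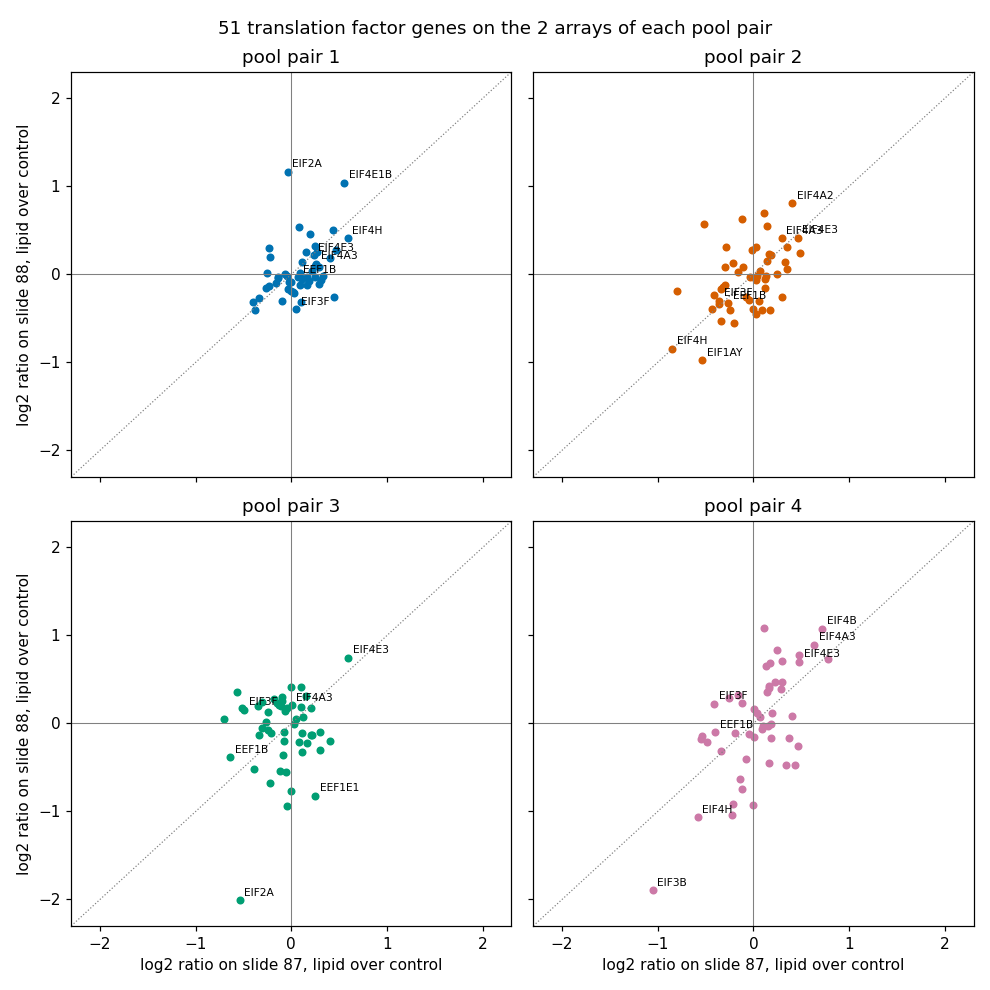
Log2 ratio of lipid over control on the slide 87 array (horizontal axis) and the slide 88 array (vertical axis) of each pool pair, with a point for each of the 51 translation factor genes and a dotted line of equality. EIF4E3 and EIF4A3 lie in the upper right of all 4 panels, EIF3B lies lowest in pool pair 4, and the cloud of pool pair 3 has the lowest correlation, 0.15.

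Different probes of a gene gave a further reading. Of 16 translation factor genes with more than 1 kept probe, all kept probes had 1 sign of the mean log2 ratio in 9 (56.2%), against 47.9% of all genes with several kept probes. Among genes with exactly 2 kept probes the share was 7 of 10 (70%), against 56.9% of all such genes. The 9 were EEF1E1, EIF1, EIF2B5, EIF2S2, EIF3F, EIF3G, EIF3I, EIF4H and EIF6, of which EIF6 alone was above 0.

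Levels also differed between pool numbers. The SD over the 4 pool pairs was larger for the level of a gene than for its log2 ratio in 19 of the 51 genes (37.3%), against 42.7% of all genes. The widest ranges of level between pairs were those of EIF4A1, at 1.87, and EEF1A1, at 1.8. EIF3B, EIF3G and EIF4A2 followed, at 1.29, 1.24 and 1.2.

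The pathways that control these factors were described from chosen lists of genes, each by its counts, and no gene in them had an adjusted p under 0.05 in the limma fit. Over all genes, 5828 of 11685 had a mean log2 ratio above 0, which is the background for the counts below. Of 9 measured genes of the eIF2 kinases and their opposing phosphatase, 6 were above 0, with a median log2 ratio of 0.087. EIF2AK2, the kinase activated by double-stranded RNA, had log2 ratios of -0.121, 0.286, 1.001 and 0.448 in pool pairs 1 to 4 and a mean of 0.404 ± 0.185 (SE). EIF2AK4, the kinase that senses uncharged tRNA, had a mean of -0.338 ± 0.194. Of 11 measured targets of the eIF2 branch of the stress response, 3 were above 0, with a median of -0.026. All 11 were above 0 in pool pair 1, and 4, 3 and 4 were above 0 in pairs 2 to 4. Over all genes, 5644, 6170, 5663 and 5879 of 11685 were above 0 in pool pairs 1 to 4. PSAT1, an enzyme of serine synthesis that ATF4 induces, had a log2 ratio of 1.065 in pool pair 1 and a mean of 0.358 ± 0.206 (SE).

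Among the cap-binding repressors and the mTOR and MNK signalling genes, 11 of 16 measured were above 0, with a median log2 ratio of 0.032. RPS6KB1, the kinase that phosphorylates ribosomal protein S6 and eIF4B, had log2 ratios of 0.172, 0.781, 0.617 and 0.126 in pool pairs 1 to 4. Its mean was 0.424 ± 0.136 (SE, limma unadjusted p = 0.0245, adjusted p = 0.996). Of the poly(A)-binding proteins and their partners 7 of 11 were above 0, with a median of 0.057. Of the termination and recycling factors 6 of 8 were above 0, with a median of 0.076. ABCE1, which splits ribosomes after termination, was below 0 in all 4 pool pairs, with a mean of -0.257 ± 0.088 (SE, limma unadjusted p = 0.0309, adjusted p = 0.996).

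Of the cytosolic aminoacyl-tRNA synthetases, which charge the tRNAs that eEF1A delivers, 10 of 18 were above 0, with a median of 0.049. IARS, the isoleucine enzyme, had log2 ratios of 0.252, 0.28, 0.265 and 0.154 in pool pairs 1 to 4. Its mean was 0.238 ± 0.064 (SE, limma unadjusted p = 0.0125, adjusted p = 0.996). MARS, the methionine enzyme, had a mean of 0.271 ± 0.098 and AARS, the alanine enzyme, a mean of -0.218 ± 0.085, with limma unadjusted p of 0.0368 and 0.0481. Mitochondrial translation factors had 5 of 8 above 0 and a median of 0.009. The enzymes that modify elongation factors had 5 of 9 above 0 and a median of 0.002.

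Markers of the embryo's own lineages were present in part. Of the 13 measured trophectoderm markers 8 were above background in all 8 control channels, among them KRT8, TFAP2C and IFNT, and CDX2 was in 2. Of the 10 inner cell mass markers 4 were, POU5F1, NANOG, KLF4 and DPPA3, while SOX2 was in 5 and SALL4 in 2. Of the 7 measured primitive endoderm markers 5 were, while SOX17 was in 1 and FOXA2 in none. The summed normalised intensity of 13 of 14 trophectoderm markers was 113000 to 172000 in lipid pools, against 109000 to 163000 in control pools, and that of 10 inner cell mass markers was 19200 to 23400 in lipid pools, against 19300 to 24300 in control pools. That of the primitive endoderm markers was 24000 to 36400 in lipid pools, against 25200 to 34700 in control pools. Of the measured cumulus and granulosa markers, 15 of 17 were above 0 in pool pair 2, with a median log2 ratio of 0.973. Over all genes 6170 of 11685 were above 0 in that pair. In pairs 1, 3 and 4 the markers above 0 were 7, 8 and 10. CYP19A1 and HAS2 were below 0 in pair 2, at -0.236 and -0.184, and FSHR was at 0.023. Of 20 listed, 17 were measured, and AMH, TNFAIP6 and FOXL2 were not above the filter. Their summed intensity was 9150, 43800, 13300 and 10100 in lipid pools 1 to 4, against 8850, 11200, 17600 and 8970 in control pools 1 to 4. In pool pair 2, LUM and VIM, named here after their values were seen, had log2 ratios of 3.70 and 2.96. Whether cumulus or granulosa cells were present in lipid pool 2 was not tested, and pool pair 2 was only left out. Without pool pair 2 the mean of EIF4E3 was 0.494, that of EIF4A3 0.353, that of EIF3F -0.145 and that of EEF1B -0.247, and of these EIF4E3 alone had an unadjusted p under 0.05, at 0.0126 (limma).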

How the data were processed

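Lipid and control blastocyst pools were measured on 8 2-colour arrays. Per the labels' protocols, RNA was amplified in a T7 reaction and labelled with Cy3 or Cy5. The authors deposited scanner files whose columns, per the file headers, give each spot's mean foreground intensity and median background intensity at 532 and 635 nm. The authors also deposited a table of log ratios, taken here as log2 from its slope of 0.858 to 0.892 on the log2 ratios computed here. Its correlation with them was 0.98 to 0.991, its column medians were -0.026 to 0.019, and no source used here states its log base or normalization. Its columns ran as lipid over control. The submitters' processing notes name limma only.

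In limma 3.58.1 (R 4.3.3), intensities were corrected with normexp (offset 50), normalised by loess within arrays and turned to log2 lipid over control. Log2 levels per pool were set on a common scale of mean intensity between arrays (Aquantile), which leaves the ratios as they were. The filter kept a probe with either channel above the mean of the 757 negative control spots by 2 SD on at least 4 of 8 arrays. On array 1 of slide 87 20.5% of probes passed this limit, against 55.2% to 73.8% on the others. Cy3 medians of 230 to 324 stood over backgrounds of 19 to 22, and Cy5 medians of 180 to 229 over 36 to 58. The number of arrays limits the precision.

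The labels do not name the pools on each array. Arrays of the same number on the 2 slides deviated together from the means of their dye orientation (correlation 0.61 to 0.77, other pairs -0.32 to -0.03), so they were averaged into 1 pool pair. The log2 ratios of 4 pool pairs were tested against 0 with lmFit and eBayes (two-sided) and Benjamini-Hochberg adjustment over 28844 kept probes, at a threshold of 0.05. The script was tested on simulated data. Other backgrounds, normalizations, filters, pairings, priors, slides and left-out pool pairs were tried as 16 alternative settings.

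The members and gene lists were chosen with earlier results of these data known. Pool values are given for the member of smallest p in each role, for members at an unadjusted p under 0.05 and for chosen central factors, 17 genes in all. Of the control lists at most 4 genes of smallest p are named, besides lineage markers. Of the 53 symbols, 48 matched a RefSeq symbol and 5 a synonym.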

Additional observations from a re-analysis of the deposited data

Results flagged for a closer look

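In 5 of 79 sets of 4 pool-pair values, the highest or lowest value lay further from the rest than Dixon's 95% limit allows, and chance alone marks about 1 set in 20. EEF1A1 had a log2 ratio of 0.434 in pool pair 4, against -0.125 to -0.075 in the others. EIF2B2 had -0.238 in pool pair 3, against 0.205 to 0.294 in the others. EIF3B had -1.475 in pool pair 4, against -0.037 to 0.165 in the others. EIF4E1B had 0.795 in pool pair 1, against 0.027 to 0.104 in the others. The median of the trophectoderm markers was 0.256 in pool pair 1, against -0.014 to 0.019 in the others.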

How the results depend on the processing

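No translation factor had an adjusted p under 0.05 in limma under any of 16 alternative settings, and the median of the translation factors stayed between -0.03 and 0.021. The number at an unadjusted p under 0.05, 4 of 51 as reported, was 2 of 40 with signal required on all 8 arrays, 1 with a trend and robust prior, 7 on slide 88 alone, and 2 to 5 when 1 pool pair was left out. EIF4E3 was among them in all 16 settings, which reuse the same 8 arrays. Without pool pair 2 the 2 genes were EEF1E1 and EIF4E3. With median centring in place of loess, the medians in pool pairs 1 to 4 were 0.108, 0.07, -0.119 and -0.036, and the cause was not tested. Without the replicate block, the 8 arrays being taken as independent, 7 of 28844 probes were called and 2492 had an unadjusted p under 0.05, with 3 translation factors at that level. With a random replicate block, and dye fitted within each slide, 0 were called, 2365 had an unadjusted p under 0.05, and the lowest adjusted p was 0.0668. Of the 17 genes with pool values, 6 changed the sign of their mean without pool pair 4 (EEF1A1, EEF2, EIF2S1, EIF4A1, EIF4E and EIF5A), and at most 3 did in each other setting. EIF3F moved by more than the SD of its pool pairs on single slides, to -0.302 on slide 87 and -0.081 on slide 88. Counts of eIF3 genes below 0 and eIF4 genes above 0 were checked in settings added after seeing the data and ranged from 7 to 11 of 12 and from 6 to 9 of 11, as was the filter that needs 4 channels of each group. Probes near background limit EIF1AY, EIF2C2, EIF4E1B, EIF5A2 and EEF1A2.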
